A study of Mus musculus with 8 samples.

Results

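Gene deserts are long stretches of the genome without annotated genes, and the 5hmC peaks described here are those that lay inside them. A peak was counted as a desert peak when its midpoint was on an autosome and more than 100 kb from every gene span of the GENCODE M1 annotation, of any gene type, on the mm9 assembly. Of 946385 autosomal peaks in 6 lists, 37545 met this rule. They were 4311 of 171520 peaks in ESCs, 15743 of 216254 in MEFs, 6646 of 157473 in brain, 2180 of 130289 in liver, 4128 of 132625 in shGFP cells and 4537 of 138224 in shSuz12 cells.

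The mark was mapped by GLIB-Seq, in which a glucose is attached to 5hmC, oxidised and coupled to biotin so that fragments with 5hmC can be pulled down and sequenced. ESCs were the E14 line, an established line of mouse embryonic stem cells. MEFs were C57BL/6 embryonic fibroblasts, from embryonic day 11 by the sample labels and from a later day by the methods. Brain and liver were adult tissue of C57BL/6 mice at the age of 8 weeks. The shGFP and shSuz12 cells were E14 cells transfected with a short hairpin against GFP (control) or against Suz12, and both were selected with puromycin. Each of these 6 conditions had 1 library. The 3 E14 libraries share a cell line and a genetic background that the other 3 do not have. No gene expression file was used, so that neither the level of Suz12 nor the identity of the tissues was checked.

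5-hydroxymethylcytosine arises when TET enzymes oxidise 5-methylcytosine, which in mammals sits almost only at CpG dinucleotides. It is abundant in ESCs and in neurons, and it is found in gene bodies and at distal regulatory elements such as enhancers. Deserts beside developmental genes often hold such enhancers far from any promoter, while other deserts are AT-rich and poor in known elements. Suz12 is a core subunit of PRC2, the complex that trimethylates lysine 27 of histone H3.

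The deserts made up 406 Mb of the sequenced autosomes, or 17.0%, in 1600 intervals with a median length of 145 kb. Of these, 58 were longer than 1 Mb. Their GC content was 39.0%, against 41.9% in intergenic sequence up to 100 kb from a gene (near-intergenic) and 43.2% in gene spans. They held 0.588 CpGs per 100 bp, against 0.803 in near-intergenic sequence and 1.004 in gene spans.

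Strong desert peaks are shown first, as examples of sequence inside peaks far from genes. Each stretch holds 300 bases around the midpoint of the highest-scoring desert peak of a cell type, or of the desert peak with the highest mean score percentile among those present in all 6 lists. They are written 5′ to 3′ on the plus strand of the mm9 assembly (NCBIM37), with CpG dinucleotides in capitals.
ESC, chr8:26435442-26435741: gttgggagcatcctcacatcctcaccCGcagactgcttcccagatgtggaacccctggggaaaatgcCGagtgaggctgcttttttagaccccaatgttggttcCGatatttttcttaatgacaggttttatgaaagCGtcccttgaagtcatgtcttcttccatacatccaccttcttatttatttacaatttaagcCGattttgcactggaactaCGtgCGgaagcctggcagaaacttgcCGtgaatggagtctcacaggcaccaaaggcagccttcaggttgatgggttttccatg
MEF, chr14:120544860-120545159: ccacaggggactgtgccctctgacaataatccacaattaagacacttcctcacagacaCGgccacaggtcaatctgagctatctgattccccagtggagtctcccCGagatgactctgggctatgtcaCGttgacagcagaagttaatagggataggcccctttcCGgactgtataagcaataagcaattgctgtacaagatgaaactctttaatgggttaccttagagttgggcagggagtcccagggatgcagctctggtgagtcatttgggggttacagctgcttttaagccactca
Brain, chr4:9007780-9008079: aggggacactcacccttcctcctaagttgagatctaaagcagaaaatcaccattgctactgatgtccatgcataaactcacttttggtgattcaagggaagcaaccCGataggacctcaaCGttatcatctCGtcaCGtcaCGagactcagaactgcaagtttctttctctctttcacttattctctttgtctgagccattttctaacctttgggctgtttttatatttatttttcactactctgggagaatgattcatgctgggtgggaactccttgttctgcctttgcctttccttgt
Liver, chr16:24238283-24238582: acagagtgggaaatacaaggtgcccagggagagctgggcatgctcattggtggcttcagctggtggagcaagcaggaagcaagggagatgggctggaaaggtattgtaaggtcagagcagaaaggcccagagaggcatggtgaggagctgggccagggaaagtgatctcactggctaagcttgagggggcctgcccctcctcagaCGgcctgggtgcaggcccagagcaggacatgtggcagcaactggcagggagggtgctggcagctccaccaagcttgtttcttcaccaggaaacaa
All 6 lists, chr8:36287098-36287397: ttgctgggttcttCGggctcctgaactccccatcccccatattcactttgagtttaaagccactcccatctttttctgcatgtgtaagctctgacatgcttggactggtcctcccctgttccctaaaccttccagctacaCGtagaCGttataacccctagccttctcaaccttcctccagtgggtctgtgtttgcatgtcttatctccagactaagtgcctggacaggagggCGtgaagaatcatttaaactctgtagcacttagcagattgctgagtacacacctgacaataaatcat
CpGs were not equally frequent in these stretches. The ESC stretch held 8 CpGs, the brain stretch 5, the MEF stretch and the stretch common to all lists 4 each, and the liver stretch 1. The stretches are small parts of the peaks, and the whole peaks differed less. There were 85 CpGs in the 4290 bp of the ESC peak, 51 in the 4184 bp of the liver peak and 43 in the 2764 bp of the MEF peak. The common peak held 46 in 2329 bp and the brain peak 36 in 2212 bp.

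The ESC peak was 4290 bp wide with a score of 2465 (2465.17), and it lay between Tacc1, a centrosomal coiled-coil protein, and Fgfr1, a fibroblast growth factor receptor, 124 kb from the nearest gene of any type. It overlapped peaks of MEFs, brain, shGFP and shSuz12 but none of liver. The MEF peak, with a score of 877 and a width of 2764 bp, lay 103 kb from the nearest gene between Oxgr1, the oxoglutarate receptor, and Mbnl2, a splicing regulator. It was also in the lists of brain and shGFP. The brain peak had a score of 296 and a width of 2212 bp and lay between Chd7, a chromatin remodeller, and Clvs1. It was found in all 6 lists, with scores of 774 in MEFs, 382 in liver, 249 in ESCs, 71.8 in shGFP and 52.0 in shSuz12. The liver peak had a score of 1284 and a width of 4184 bp and lay between Bcl6, a transcriptional repressor, and Lpp, a focal adhesion protein. It overlapped peaks of all the other libraries except shGFP. Overlap with all other lists was counted without the 214 of 4311 ESC desert peaks that lay on chromosome 18, and it was not counted over all ESC peaks. Of the desert peaks counted, 94 met a peak in every one of the other 5 lists. The one shown lay between Tnks, a tankyrase, and Ppp1r3b, a glycogen-targeting subunit of protein phosphatase 1, with scores of 1201 in ESCs, 219 in MEFs, 85.8 in brain, 562 in liver, 421 in shGFP and 158 in shSuz12.

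The first question was how dense the peaks were in deserts. ESCs had 10.6 desert peaks per Mb (exact Poisson 95% interval 10.3 to 10.9), MEFs 38.7 (38.1 to 39.3), brain 16.4 (15.96 to 16.7) and liver 5.36 (5.14 to 5.59). The shGFP cells had 10.2 (9.85 to 10.5) and the shSuz12 cells 11.2 (10.8 to 11.5). The MEF list was therefore the densest in deserts and the liver list the sparsest, and the 3 E14 lists lay close together. Desert peaks took 7.28% of the MEF list, 4.22% of the brain list, between 2.51 and 3.28% of the E14 lists and 1.67% of the liver list. These intervals cover counting error only. The read depth of the libraries is unknown and the lists stop at different scores (30 in brain and MEFs, 30.34 in shSuz12, 50.02 in shGFP, 80 in liver and ESCs), so the order between libraries could not be tested.

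When only peaks with a score of at least 80 were kept in every list, the order changed. There were then 11.1 desert peaks per Mb in MEFs and 10.6 in ESCs, followed by liver with 5.36, shGFP with 5.02, brain with 1.77 and shSuz12 with 1.35. Brain thus moved from rank 2 to rank 5, and the distance between MEFs and ESCs almost closed.

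Within every library the deserts were poorer in peaks than sequence nearer to genes. In near-intergenic sequence there were 57.1 peaks per Mb in ESCs, 77.2 in MEFs, 40.7 in brain, 32.4 in liver, 46.4 in shGFP and 46.0 in shSuz12. In gene spans there were 111 peaks per Mb in ESCs, 124 in MEFs, 111 in brain, 96.0 in liver, 82.6 in shGFP and 88.2 in shSuz12. The ratio of desert to near-intergenic density was 0.502 in MEFs, 0.401 in brain, 0.243 in shSuz12, 0.219 in shGFP, 0.186 in ESCs and 0.165 in liver. Against gene spans the ratio was 0.312 in MEFs and between 0.0558 in liver and 0.148 in brain in the other libraries. With scores of at least 80, the brain ratio was 0.0665 and the shSuz12 ratio went from 0.127 to 0.0839. The mean log2 ratio was -1.93 against near-intergenic sequence and -3.00 against gene spans, negative in 6 of 6 libraries for both. An exact sign-flip permutation test over the 6 libraries, two-sided, gave p = 0.03125 for each, the smallest that 6 libraries allow, and 0.046875 after Benjamini-Hochberg adjustment over the 6 desert measures tested. The 3 E14 libraries are not independent, and with the 4 cell types alone the smallest possible p is 0.125.

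**Figure D1:**
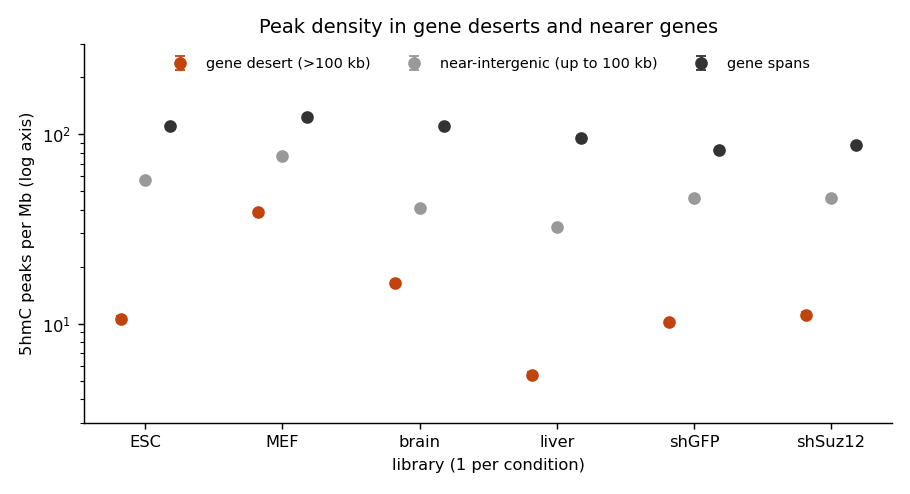
5hmC peaks per Mb (log axis) in gene deserts, near-intergenic sequence and gene spans for each library, with exact Poisson 95% intervals that are mostly smaller than the points. Deserts are lowest in all 6 libraries, from 5.36 peaks per Mb in liver to 38.7 in MEFs.

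Base composition moved with this difference. When 10 kb tiles were compared within 20 classes of GC content and weighted to the composition of the deserts, the ratio of desert to near-intergenic density rose to 1.002 in MEFs and 0.969 in brain. It stayed lower in shSuz12 (0.626), shGFP (0.576), ESCs (0.527) and liver (0.426). Over the 6 libraries the mean log2 ratio became -0.61, with an exact sign-flip p of 0.0625 before adjustment, so that the call against near-intergenic sequence was lost. Against gene spans the ratio was between 0.105 in liver and 0.589 in MEFs after the same weighting, and all 6 libraries remained below 1. The weighting was added once the unweighted values were known.

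The density, here not weighted for GC content, also fell steadily with distance from genes. In ESCs it went from 82.6 peaks per Mb within 10 kb of a gene to 28.1 at 50 to 100 kb, 15.8 at 100 to 200 kb, 6.31 at 200 to 500 kb and 0.804 beyond 500 kb. In MEFs the corresponding values were 82.8, 65.7, 51.1, 29.5 and 10.1. In the lists as deposited, MEFs and ESCs were thus nearly equal beside genes and apart far from them. The MEF list stops at a score of 30 and the ESC list at 80, and the profile was not computed at a common limit. With scores of at least 80 the desert densities were 11.1 in MEFs and 10.6 in ESCs, and the densities outside deserts 35.0 in MEFs and 84.1 in ESCs. At that limit the 2 lists were thus close in deserts and apart elsewhere. The ratios of desert to near-intergenic density were then 0.436 in MEFs and 0.186 in ESCs. Brain went from 51.2 within 10 kb to 22.5 at 100 to 200 kb and 2.96 beyond 500 kb, and liver from 56.7 to 8.18 and 0.718. At the deepest positions shGFP had 2.01 peaks per Mb and shSuz12 2.50, both above ESCs, whose list stops at a higher score. The threshold of 100 kb did not mark a step. At 90 to 100 kb and at 100 to 110 kb the densities were 60.6 and 57.1 in MEFs, 25.8 and 25.9 in brain, 22.3 and 20.2 in ESCs, and 10.2 and 10.5 in liver. In shGFP they were 19.9 and 17.6, and in shSuz12 19.4 and 17.9. The median distance of a desert peak from the nearest gene was between 146 kb in liver and 163 kb in MEFs, and the farthest peak, in MEFs, was 1077 kb from any gene.

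**Figure D2:**
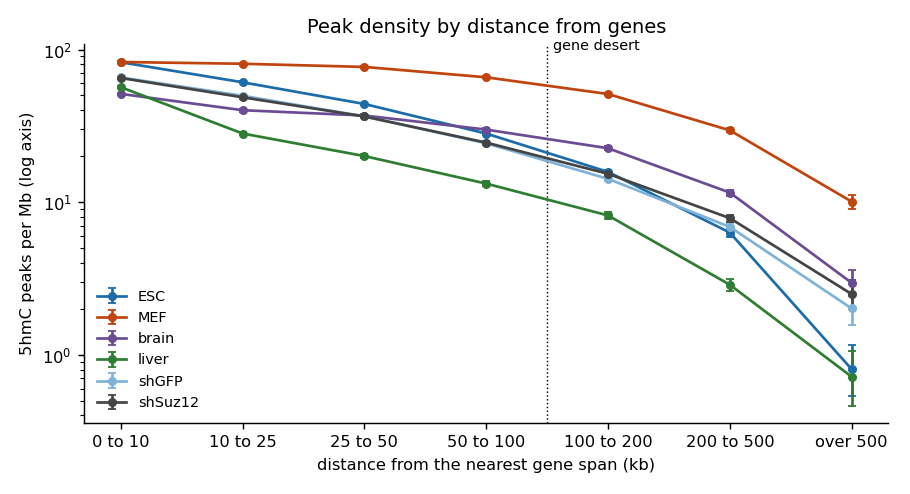
Density of intergenic 5hmC peaks (log axis) against the distance of the peak midpoint from the nearest gene span, 1 line per library, with exact Poisson 95% intervals. The dotted line marks 100 kb, and every line falls from left to right, most steeply in ESCs and least in MEFs, which ended at 0.804 and 10.1 peaks per Mb. The lists are as deposited and stop at different scores, and the densities are not weighted for GC content.

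Desert peaks were somewhat narrower than the other peaks of the same list. The median width was 788 bp against 846 bp in ESCs, 766 against 822 in MEFs, 985 against 1068 in brain and 902 (901.5) against 1019 in liver. In shGFP it was 725 against 779 bp and in shSuz12 540 against 565 bp. The mean log2 ratio was -0.11, negative in 6 of 6 libraries (exact sign-flip permutation test, p = 0.03125, adjusted 0.046875). Widths differed more between libraries than between compartments of a library, as the median brain desert peak was wider than the median ESC, MEF, shGFP and shSuz12 peak outside deserts.

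Scores were compared as percentiles within each list, because the lists stop at different scores. The median percentile of the desert peaks was 44.998 in MEFs, 44.5 in shSuz12, 43.3 in shGFP, 39.7 in ESCs, 38.6 in brain and 35.6 in liver, where the other peaks had medians from 50.2 to 50.6. The difference averaged -8.88 percentile points and was negative in 6 of 6 libraries (exact sign-flip permutation test, p = 0.03125, adjusted 0.046875). In units of the score itself, the median was 147 in desert peaks against 179 elsewhere in ESCs and 53.5 against 58.7 in MEFs. It was 43.6 against 50.2 in brain, 128 against 163 in liver, 79.3 against 87.6 in shGFP and 50.1 against 53.2 in shSuz12. The strongest 10% of the peaks in a list contained 6.53% of the MEF desert peaks, 6.63% in shSuz12 and 6.37% in shGFP, and 3.83% in ESCs, 3.27% in brain and 3.21% in liver. Weak peaks thus made up more of the desert set, but the ranges overlapped widely, and the strongest desert peaks shown above stood at percentiles from 98.7 in liver to 99.9 in MEFs.

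Desert peaks lay in the CpG-richer parts of the deserts. Their median CpG content was between 1.23 per 100 bp in liver and 1.79 in ESCs, where desert sequence as a whole had 0.588. None of the 37545 desert peaks lacked a CpG, but peaks without a CpG were almost absent elsewhere too. They made up at most 0.00449% of the other peaks of a list (shSuz12). Their median GC content was between 43.6% in MEFs and 48.0% in ESCs, above the 39.0% of the deserts. Compared with the other peaks of the list, CpG content was lower in MEFs (1.24 against 1.43 per 100 bp), brain (1.32 against 1.43), liver (1.23 against 1.32), shGFP (1.61 against 1.77) and shSuz12 (1.68 against 1.81). In ESCs it was higher, at 1.79 against 1.71. The mean log2 ratio was -0.10, negative in 5 of 6 libraries, and did not pass the test (exact sign-flip permutation test, p = 0.0625, adjusted 0.075).

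**Figure D3:**
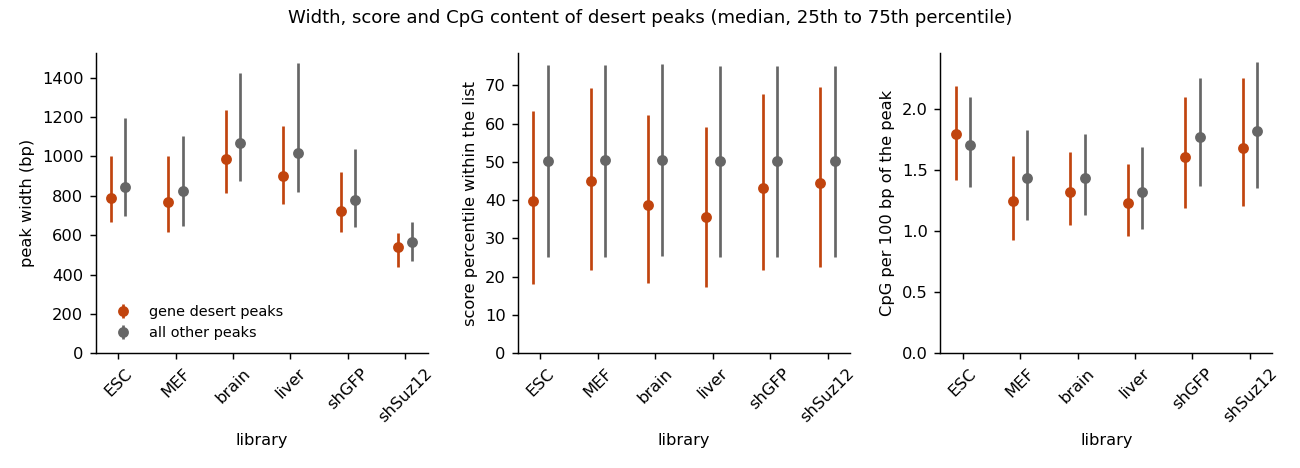
Width, score percentile within the list and CpG content of desert peaks beside all other peaks of each library, as medians with lines from the 25th to the 75th percentile. Desert peaks have lower medians for width and score in all 6 libraries, and for CpG content in all but ESCs (1.79 against 1.71 per 100 bp).

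The next question was how far the cell types shared their desert peaks. A desert peak was called shared when it overlapped a peak of at least 1 other cell type by 1 bp or more. This held for 66.8% of the ESC desert peaks (exact binomial 95% interval 65.4 to 68.2%), where 73.9% of all ESC autosomal peaks were shared. In brain it held for 60.5% (59.3 to 61.7%), against 75.9% of all brain peaks, and in liver for 66.1% (64.02 to 68.0%), against 74.0%. MEFs stood apart, with 34.4% (33.7 to 35.2%) of desert peaks shared and 62.9% of all MEF peaks. Compared with peaks outside the deserts, the share differed by -30.7 points in MEFs, -16.1 in brain, -8.10 in liver and -7.27 in ESCs (exact sign-flip permutation test over the 4 cell types, p = 0.125, the smallest that 4 allow). The lists stop at different scores. With scores of at least 80 in every list the differences were -33.0 points in MEFs, -15.9 in brain, -15.9 in liver and -15.6 in ESCs, so that brain, liver and ESCs were then nearly equal. In the lists as deposited, overlap with all 3 other cell types was found for 11.5% of the liver desert peaks, 5.54% in ESCs, 3.72% in brain and 1.65% in MEFs. Outside the deserts these shares were 19.2, 14.9, 16.4 and 12.8%, respectively.

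Overlap with the MEF list was higher in deserts for the other 3 cell types. ESC desert peaks met a MEF peak in 55.0% of cases, and ESC peaks elsewhere in 47.9%. In liver the values were 51.7% and 45.2%, and in brain 52.1% and 50.5%. The transfected cells differed the other way, with 46.4% and 48.7% in shGFP and 43.0% and 44.3% in shSuz12. With liver the reverse was seen: 13.2% of ESC desert peaks met a liver peak, and 39.1% of ESC peaks elsewhere. How much of the deserts a list covers sets part of these shares, and MEF peaks covered 3.41% of desert sequence, brain 1.77%, ESC 0.947% and liver 0.558%. The share of ESC desert peaks met was 16.1 times the covered share for MEFs, 19.6 times for brain and 23.7 times for liver, and outside the deserts these ratios were between 4.65 and 4.92.

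Merged over the 4 cell types, the desert peaks formed 20584 regions, and 15144 of them (73.6%) belonged to 1 cell type only. Merged in the same way, all autosomal peaks formed 353529 regions, of which 55.7% belonged to 1 cell type. MEF-only regions were the largest class with 10333 (50.2%, against 22.7% for all autosomal peaks), followed by brain-only regions with 2633 (12.8%). ESC-only regions numbered 1435 and liver-only regions 743. The most frequent combination was MEFs with brain (1943 regions), then ESCs with MEFs (1031) and ESCs with MEFs and brain (842). All 4 cell types shared 264 regions (1.28%, against 6.68% for all autosomal peaks). The number of MEF-only regions depended on the low end of the MEF list, but their share stayed above that for all autosomal peaks. With scores of at least 80 there were 8902 regions, of which 2827 (31.8%) were MEF-only, against 9.39% for all autosomal peaks at that limit. A further 2618 (29.4%) were ESC-only, 1276 (14.3%) liver-only and 202 brain-only. The share in 1 cell type was 77.8%, against 64.6% for all autosomal peaks at that limit.

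**Figure D4:**
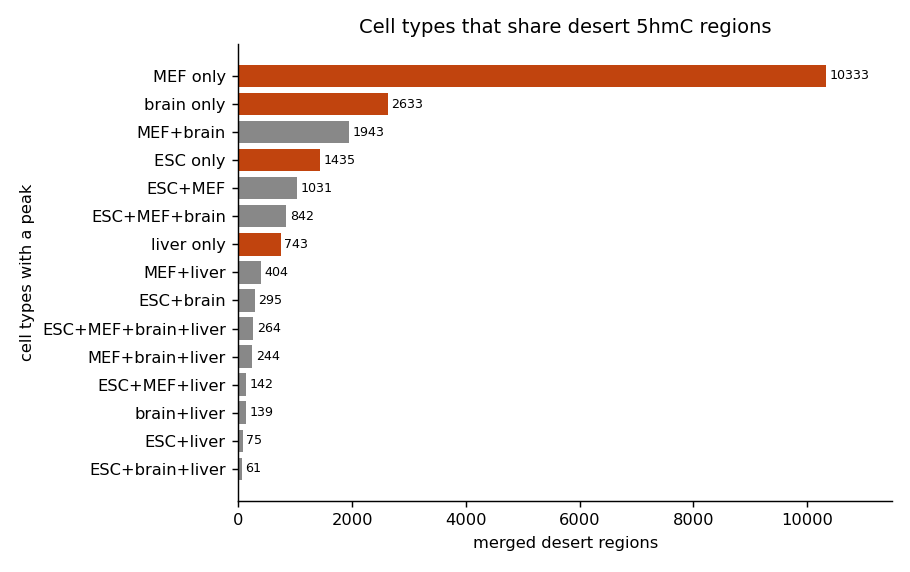
Number of merged desert regions for each combination of the 4 cell types, with single cell types in red and combinations in grey. MEF-only regions (10333 of 20584) outnumber every other class, and 264 regions were common to all 4 cell types.

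Desert peaks that more cell types shared were wider and scored higher. In MEFs the median width was 707 bp for peaks found in no other cell type, 880.5 bp with 1 other, 1046 (1045.5) with 2 others and 1263 with all 3. The score percentile rose in the same order from 38.1 to 55.8, 71.4 and 83.6. In ESCs the width went from 717 to 964 bp and the percentile from 26.8 to 59.2, in brain from 889 to 1288 bp and 28.7 to 70.3, and in liver from 832 to 1144 bp and 27.8 to 58.7. CpG content also differed between unshared and fully shared peaks, with 1.09 and 1.72 per 100 bp in MEFs, 0.994 and 1.66 in liver, 1.13 and 1.66 in brain, and 1.64 and 1.87 in ESCs. A wider peak has more room to overlap another, and the part of width in these values was not tested.

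The 3 E14 libraries gave a view of how far lists from the same cell line coincide in deserts. Merged, they formed 8271 desert regions, of which 1170 (14.1%) were in all 3, and 2188 were in shSuz12 only, 1474 in ESCs only and 1461 in shGFP only. All autosomal peaks of these libraries were not merged in this way, so the counts cannot be called particular to deserts. The lists also stop at different scores, 80 in ESCs, 50.02 in shGFP and 30.34 in shSuz12. Of the ESC desert peaks, 52.0% met a shGFP peak (50.5 to 53.5%), beside 56.4% of all ESC peaks. In the other direction 54.8% of shGFP desert peaks met an ESC peak, and 77.1% of shGFP peaks elsewhere did.

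Suz12 knockdown cells were compared with shGFP cells to see whether desert peaks changed when PRC2 was targeted. There were 4128 desert peaks in shGFP and 4537 in shSuz12, but the shSuz12 list reaches down to lower scores. With scores of at least 80 in both, 2039 (49.4%) remained in shGFP and 549 (12.1%) in shSuz12. Outside deserts 72314 (56.3%) remained in shGFP and 23000 (17.2%) in shSuz12, so that the difference between the lists was not confined to deserts. Of the 4128 shGFP desert peaks, 2520 (61.0%, 59.5 to 62.5%) met no shSuz12 peak, where 49.5% of all shGFP peaks and 49.1% of those outside deserts did not. In the opposite direction 37.4% of shSuz12 desert peaks met a shGFP peak, and 54.3% elsewhere. With equal numbers of peaks in both lists the share without a shSuz12 peak was 62.2% in deserts and 50.6% elsewhere. Peaks of shSuz12 were narrower (540 against 725 bp in deserts) and covered 0.620% of desert sequence against 0.830% in shGFP. Each has 1 library, and of the same shGFP desert peaks 54.8% met a peak of the untransfected ESCs and 39.0% a peak of shSuz12, so that a change through the knockdown cannot be told apart from the spread between libraries.

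Desert peaks were not spread evenly. Of 639 windows of 1 Mb with at least 250 kb of desert sequence, 442 had no liver peak, 253 no ESC peak, 243 no brain peak, 187 no shGFP peak, 142 no shSuz12 peak and 70 no MEF peak. The 64 densest windows held 78.2% of the desert peaks in these windows in liver, 64.7% in ESCs, 54.2% in brain, 50.5% in shGFP, 49.8% in shSuz12 and 40.3% in MEFs. The windows were ranked in each library by these same peaks, and a list with fewer peaks leaves more windows empty. The order between libraries was therefore not tested. Of the 1600 desert intervals, 257 had no peak in any list. The longest, of 2162 kb (2161.51) between Olfm4 and Pcdh17 on chromosome 14, held 22 MEF, 15 brain, 10 shSuz12, 4 shGFP and 1 ESC peaks and none of liver.

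The densest ESC window was on chromosome 13 (chr13:44000001-45000000), with 88 peaks in 453 kb of desert sequence, or 194 per Mb (156 to 240). Its desert lies between Cd83, a surface protein of dendritic cells and lymphocytes, and Jarid2, a DNA-binding partner of PRC2. The same window held 309 peaks per Mb in MEFs, 190 in brain, 95.0 in liver and 179 in both shGFP and shSuz12. It held rank 1 in ESCs and shGFP, rank 2 in MEFs, rank 3 in brain and rank 5 in liver.

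The densest MEF window was chr14:77000001-78000000, beside Serp2, with 90 peaks or 337 per Mb (271 to 414). It held rank 2 in each of ESCs (157 per Mb), brain (202), liver (168) and shGFP (138), and had 150 per Mb in shSuz12. In brain the densest was chr17:10000001-11000000, between Pabpc6, of the poly(A)-binding proteins, and Qk, an RNA-binding protein of myelinating glia. It held 214 peaks per Mb (165 to 273) in brain, 150 in MEFs, 76.8 in ESCs and 16.7 in liver. The densest liver window was chr13:37000001-38000000, between Ly86 and Rreb1, a zinc finger transcription factor, with 169 peaks per Mb (122 to 228) in liver, 173 in MEFs, 106 in brain and 82.5 in ESCs.

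Other leading windows were unequal between the cell types in the lists as deposited, which stop at different scores. The window next to Runx1, a transcription factor of blood formation, on chromosome 16 had 300 peaks per Mb in MEFs (299.7, rank 3), 152 in brain, 59.9 in ESCs and 49.4 in each of shGFP and shSuz12. None of its 284 kb of desert held a liver peak. The window between Rtl1 and Dio3, imprinted genes of chromosome 12, held rank 3 in liver with 147 peaks per Mb, and had 187 in MEFs, 132 in ESCs and 82.8 in brain. The window beside Tle3, a Groucho-type corepressor, on chromosome 9 held rank 3 in ESCs with 138, and had 252 in MEFs, 189 in brain and 74.99 in liver.

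**Figure D5:**
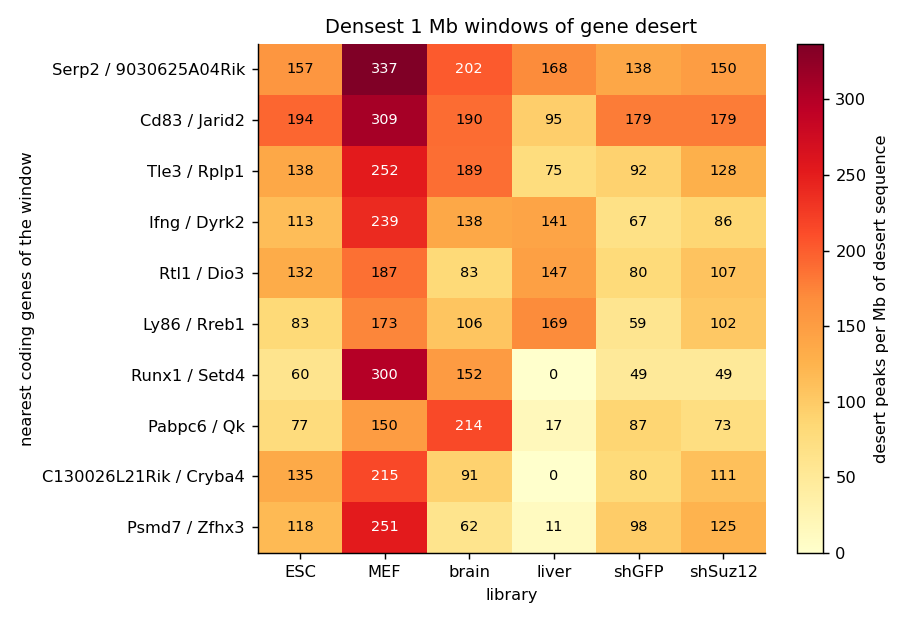
Desert peaks per Mb of desert sequence in the 10 windows that were among the 5 densest of any of the 4 cell types, named by the nearest protein-coding gene on each side, for all 6 libraries. The windows at Serp2, Jarid2 and Tle3 are dense in every library, and those at Runx1 and Cryba4 hold no liver peak.

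The leading windows depended on how the windows were laid and on how much desert each had to hold. With windows shifted by 500 kb, the densest was chr9:60500001-61500000 in ESCs (167 per Mb), chr14:76500001-77500000 in MEFs (337) and liver (168), and chr14:25500001-26500000 in brain (245). No shifted window that overlapped the leading ESC window at Jarid2, or the leading liver window at Rreb1, was among the 10 densest of that cell type. A window had to hold at least 250 kb of desert sequence, and the Rreb1 window held 254 kb in all. The shift also cuts the desert between Cd83 and Jarid2 (chr13:44320549-44724842). Whether these windows were lost through this size rule or through their density was not checked. Among the 296 windows with at least 500 kb of desert sequence, the densest was next to Zfp703 in ESCs (127 per Mb), between Psmd7 and Zfhx3 in MEFs (251) and before Pik3r1 in liver (91.6), and brain reached 109. With scores of at least 80, which leaves out no ESC or liver peak, the densest MEF window was the same as before at 176 per Mb, and in brain the Serp2 window came first with 59.8.

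Across the 639 windows Pearson's r was 0.945 between ESC and shGFP, 0.954 between ESC and shSuz12, and 0.942 between shGFP and shSuz12, above all other pairs. These E14 lists shared 17 or 18 of their 20 densest windows. By Spearman's rho they stood at 0.791, 0.757 and 0.754, below MEFs and brain (0.824). Between different cell types r was highest for MEFs and brain (0.881), then ESCs and brain (0.802) and ESCs and MEFs (0.763), and lower for liver with any other (0.566 to 0.608), with 7 to 10 of 20 windows shared. Spearman's rho was between 0.447 and 0.824 for pairs of cell types. These are descriptions over windows of the same genome, which share their base composition, and the density itself followed GC content with r of 0.761 in brain, 0.747 in MEFs, 0.700 in ESCs and 0.440 in liver. The median GC content of the 64 densest windows was 43.6% for ESCs, 42.9% for MEFs, 43.4% for brain and 41.7% for liver, against 38.2% for all windows.

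Counted by whole desert interval, 5 intervals held the most peaks over the 4 cell types. The interval between Cd83 and Jarid2 led with 82 ESC, 131 MEF, 80 brain and 36 liver peaks in 404 kb. The interval between Psmd7, a proteasome subunit, and Zfhx3, a zinc finger homeobox factor, had 83 ESC, 173 MEF, 51 brain and 7 liver peaks in 672 kb. That upstream of Cadm1, a cell adhesion molecule, had 69, 100, 71 and 31. The interval between Sox2, a factor of pluripotency and neural precursors, and Atp11b, a phospholipid flippase, had 78 ESC, 108 MEF, 75 brain, 72 shGFP and 78 shSuz12 peaks in 853 kb, and 1 liver peak. The interval between Slc4a3, an anion exchanger, and Epha4, an ephrin receptor of axon guidance, had 165 MEF and 61 brain peaks, but 11 in ESCs, 15 each in shGFP and shSuz12 and 6 in liver. Thus ESCs and brain had almost equal numbers at Sox2 and MEFs more, and at Epha4 MEFs led by far. Their GC contents were 45.1, 43.5, 44.96, 42.8 and 40.8%, respectively, all above the desert mean of 39.0%.

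Deserts were then grouped by the nearest protein-coding genes on either side, in 3 lists set by symbol. Deserts beside developmental transcription factors (94 intervals, 17.7 Mb) had 28.3 peaks per Mb in ESCs (25.9 to 30.9), 2.67 times the density of all deserts. In shGFP the density was 2.59 times and in shSuz12 2.42 times that of all deserts. MEFs had 80.3 peaks per Mb (2.07 times) and brain 31.3 (1.91 times), but liver 5.08 (4.08 to 6.24), 0.947 times its desert density. The GC content of these deserts was 40.9%. A few intervals carried much of this: 5 of the 94 held 265 of the 502 ESC peaks, and without them the ratio was 1.52 in ESCs, 1.55 in MEFs, 1.19 in brain, 0.878 in liver, 1.59 in shGFP and 1.41 in shSuz12. These 5 were chosen for holding the most peaks, while the density of all deserts still counted every interval. Some fall of the ratio was thus fixed in advance. After the Zfhx3 and Sox2 intervals, those with the most peaks were beside Sall3, Tbx3 and Tshz1. The Sall3 interval had 51 ESC, 113 MEF, 64 brain and 5 liver peaks, and the Tshz1 interval 19, 77, 42 and none.

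Deserts beside neuronal adhesion and synapse genes (245 intervals, 89.6 Mb) were poor in peaks in every library, brain included. Brain had 5.84 peaks per Mb there (5.35 to 6.36), 0.357 times its density in all deserts. The ratio was 0.279 in ESCs, 0.461 in MEFs, 0.194 in liver, 0.373 in shGFP and 0.358 in shSuz12, and the GC content was 37.7%. Without the 5 intervals with most peaks it was between 0.0982 in liver and 0.318 in MEFs, and 0.212 in brain, again against all deserts with every interval kept. The list takes whole families, and the interval with most peaks after that of Epha4 was beside Cdh5, the cadherin of endothelial cells, with 144 MEF, 45 brain, 26 ESC and 11 liver peaks. Deserts beside chemosensory receptors summed to 0.788 Mb in 13 intervals and held 19 MEF, 8 shGFP, 6 shSuz12, 3 liver, 2 brain and 1 ESC peaks, too few for a comparison.

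By chromosome, desert density was below near-intergenic density on 19 of 19 autosomes in each library except MEFs, where it was below on 18. Chromosome 8 stood out in the E14 lists. Its deserts had 3.32 times the peak density of the other autosomes' deserts in ESCs, 2.53 times in shGFP and 2.51 times in shSuz12, but 1.55 times in MEFs, 1.49 times in brain and 1.59 times in liver. Outside deserts the ratios were 1.80, 1.78 and 1.89 in the E14 lists and between 1.07 and 1.14 in the other libraries. Copy number was not measured, and its part in the E14 values was not tested. Without chromosome 8 the mean log2 ratio of desert to near-intergenic density was -2.01. Chromosome 11 had the lowest desert density in all libraries but MEFs, from 0.236 times the autosomal mean in liver to 0.586 times in shGFP, and in MEFs it was chromosome 6 (0.680 times).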

How the data were processed

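GLIB-Seq reads were mapped by the authors to mm9 with Bowtie 0.12.7, with unique hits kept and redundant reads collapsed, and peaks were called in each library with MACS 1.4.1. The submitters' processing notes also name CASAVA 1.8. Each deposited peak carries the score that the authors obtained from MACS, read here as -10 log10 of the p-value. Thresholds and controls are not given in the sources used here, and read depth is unknown. The 2 RNA-Seq samples were not analysed here.

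Midpoints were placed against 34653 autosomal genes (21418 protein-coding) of GENCODE M1 on NCBIM37, with unsequenced bases left out of densities. Exact 95% intervals reflect counting error alone. As no condition has a second library, only contrasts within libraries were tested, by exact sign-flip permutation over libraries. Members, lists and tests were chosen with earlier results of these data known. Genes named are the nearest protein-coding genes of the 3 densest windows per cell type, of the peaks shown, of the 5 fullest intervals, and of the fullest intervals of each list. Zfp703, Pik3r1, Cryba4 and the genes of the longest interval were named after their values were seen. The share of repeat-masked sequence was planned but could not be had, because the reference is not soft-masked. Alternatives were a score of at least 80, the upper 50% of scores, 50 or 200 kb, protein-coding genes only, covered bp, 50% overlap, equal numbers and other windows. GC weighting, the 4 cell types alone and leaving out chromosome 8 were added later, with the data in view. The steps ran in Python 3.11.15 (scipy 1.17.1, pandas 2.3.3, numpy 2.4.6) and were tested on simulated peaks, and matplotlib 3.10.9 drew the plots.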

Additional observations from a re-analysis of the deposited data

Results flagged for a closer look

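The CpG content of desert peaks differed from that of the other peaks in opposite directions between libraries. In ESCs the log2 ratio of the medians was 0.0703, and in the other 5 libraries it was negative. The difference between ESCs and the other libraries was not tested, as each has 1 library. The ratio stayed positive in ESCs with limits of 50 and 200 kb (0.05 and 0.09).

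Deserts of the X chromosome, which the comparisons above leave out, held peaks in 4 of 6 libraries. There were 14 in MEFs and 6 in shSuz12, above the 3 counts that a count of 0 allows, and 3 in shGFP, 2 in ESCs and none in brain or liver, which allows up to 3 each. In 11.1 Mb of desert this came to 1.26 peaks per Mb in MEFs and 0.540 in shSuz12, or 0.0325 and 0.0483 times their autosomal desert densities. The whole X chromosome was also sparse, with 757 MEF peaks (4.67 per Mb, against 90.3 on autosomes) and 22 in brain (0.136 against 65.8). The cause was not tested.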

How the results depend on the processing

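No paired analysis was possible because no condition was sequenced in replicate, so that no replicate number could pair conditions. The tested contrasts are within libraries. They were set at limits of 50 and 200 kb, and besides at a score of at least 80 (densities, width), with protein-coding genes only (densities, score) and with the upper 50% of scores or covered bp (densities). In each of these the 4 contrasts that passed the test kept their direction and their side of the threshold (unadjusted exact permutation p), with -1.58 to -2.57 for density against near-intergenic sequence. With the 4 cell types alone the means were -1.83 (density against near-intergenic sequence), -3.00 (against gene spans), -0.12 (width, log2) and -10.3 (score percentile), with an exact permutation p = 0.125, the smallest 4 libraries allow. With 20 GC classes the near-intergenic contrast was -0.61 (exact permutation p = 0.0625), and in MEFs its log2 ratio turned to 0.0030. With 5 classes it was -0.86 (exact permutation p = 0.03125). The share of shGFP desert peaks without a shSuz12 peak was 85.5% with scores of at least 80 (78.9% elsewhere) and 73.2% with 50% overlap (67.9% elsewhere). The densest windows moved to 176 (MEFs) and 59.8 (brain) peaks per Mb with scores of at least 80, and to 127 (ESCs), 251 (MEFs), 109 (brain) and 91.6 (liver) with at least 500 kb of desert, which leaves fewer windows. In all, 37 alternative values of the main results kept their direction and side of the threshold or, where untested, lay within the counting interval, 8 left that interval, and 5 were no longer past the threshold. The alternatives for sharing and the settings with the 4 cell types alone cannot pass the threshold. Their side of it was therefore fixed in advance, and the tally does not measure it. Depth is unknown, so that a region without a peak cannot be read as a region without 5hmC.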

Other observations

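The second-strongest ESC desert peak was at chr6:3132263-3134215, before Samd9l, the first protein-coding gene there, with a score of 2225 and 3.02 CpGs per 100 bp. It was also at rank 2 in shGFP (score 969) and rank 5 in shSuz12 (score 242), and it overlapped peaks of MEFs and liver but none of brain. The strongest shSuz12 desert peak lay between Auts2 and Gatsl2, with a score of 262 and 2.4 CpGs per 100 bp, and it met peaks of ESCs, MEFs, brain and shGFP but none of liver.

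Of the 5 strongest MEF desert peaks, the first is described above. That at rank 2 was 147 kb from En1, a homeobox gene of the midbrain and limb, with a score of 866. That at rank 3 lay between Med13l (402 kb) and Tbx3 (502 kb), with a score of 857, that at rank 4 between Mki67 (143 kb) and Mgmt (1029.76 kb), with a score of 801, and that at rank 5 between Dusp10 (379 kb) and Hlx (269.9 kb), with a score of 792. The peaks at ranks 2 and 4 overlapped peaks of every list except liver, that at rank 3 those of ESCs and shSuz12, and that at rank 5 those of brain. The genes of both paragraphs were named after their values were seen.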
